A study of Homo sapiens with 6 samples.

Results

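The 10 genes described here belong to the restriction point of the cell cycle and were followed in A549 cells, an epithelial cell line established from a human lung adenocarcinoma. They are the D cyclin genes CCND1, CCND2 and CCND3, the kinase genes CDK4 and CDK6, the inhibitor genes CDKN1B and CDKN2C, and the pocket protein genes RB1, RBL1 and RBL2. The 10 genes were taken by name from the 62700 genes of the deposited table, and 9 of them were among the 12871 genes tested. The 3 sgH2AC19 libraries come from cells described as knockout derivatives for H2AC19, a histone H2A gene, and the 3 sgControl libraries come from cells with a control guide, whose genotype label is WT. All cells were grown in the same serum-containing medium, and no drug or other treatment is labelled. The labels do not say whether the knockout cells were a single clone or a pool, how many guides were used, or whether the replicates were separate cultures. All p-values therefore reflect the spread among these 6 libraries, part or all of which may be technical.

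D cyclins are made in response to growth signals and bind CDK4 or CDK6. The active kinases phosphorylate the pocket proteins, which then release E2F transcription factors, and genes for DNA replication are switched on. The INK4 inhibitors block CDK4 and CDK6 directly, whereas the CIP/KIP inhibitors bind cyclin-CDK complexes more broadly. Much of this control acts on proteins, by phosphorylation and degradation, which RNA levels do not show.

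Each library rested on 35681162 to 45738439 reads, recovered from the spacing of the FPKM values (fragments per kilobase of gene, scaled to the library total). The target could not be checked, because H2AC19 and its near-identical copy H2AC18 were listed at 0 in all 6 libraries. Directions therefore rest on the labels alone. One library stood apart from its group: on the second principal component (18.2% of the variance) sgH2AC19 replicate 3 lay at −16.0, and sgH2AC19 replicates 1 and 2 lay at 8.09 and 8.32. Member results are for this reason given with and without it. All 5 epithelial markers were at 1 FPKM or more in every library, with summed levels of 753 to 790 FPKM in sgH2AC19 and 586 to 622 FPKM in sgControl. EPCAM, KRT8, KRT18 and CDH1 rose and KRT19 fell (limma). The 6 endothelial markers summed to at most 0.269 FPKM in any library. Of 6 fibroblast markers, LUM reached 1 FPKM in all libraries, and the sums were 5.17 to 6.03 FPKM in sgH2AC19 and 3.29 to 3.76 FPKM in sgControl. LUM rose by 0.38 (limma adjusted p = 0.0208) and COL1A1, at 1.39 FPKM in sgH2AC19 and 0.641 FPKM in sgControl, by 0.54 (adjusted p = 0.00484). COL1A1 reached 1 FPKM, the minimum of the filter on low values, in the sgH2AC19 libraries alone. Without sgH2AC19 replicate 3 it was not tested. Of 6 leukocyte markers, CD14 reached 1 FPKM in all libraries and CD3E was at 0, with sums of 3.15 to 4.57 FPKM in sgH2AC19 and 2.89 to 3.75 FPKM in sgControl. The part of these marker levels in the results below was not tested. In bulk RNA, a change in the number of cells that express a gene and a change in RNA per cell cannot be told apart.

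The knockout libraries held less CCND1 and more CCND3, CDKN2C and RBL2 mRNA than the control libraries. Of the 9 members tested, 3 rose, 1 fell and 5 were not called (limma on log2(FPKM + 1), two-sided, Benjamini-Hochberg adjusted p below 0.05 over all genes tested). Of all genes tested 23.1% were called, 12.0% up and 11.0% down. The median log2 fold change was 0.07 over the 9 members and −0.01 over all genes tested. The groups did not overlap for 5 of the 9 members, 1 lower and 4 higher in sgH2AC19, and for 43.2% of all genes tested (21.7% lower, 21.5% higher). Without sgH2AC19 replicate 3, 3 members rose and 2 fell, beside 14.1% and 13.0% of all genes.

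**Figure D1:**
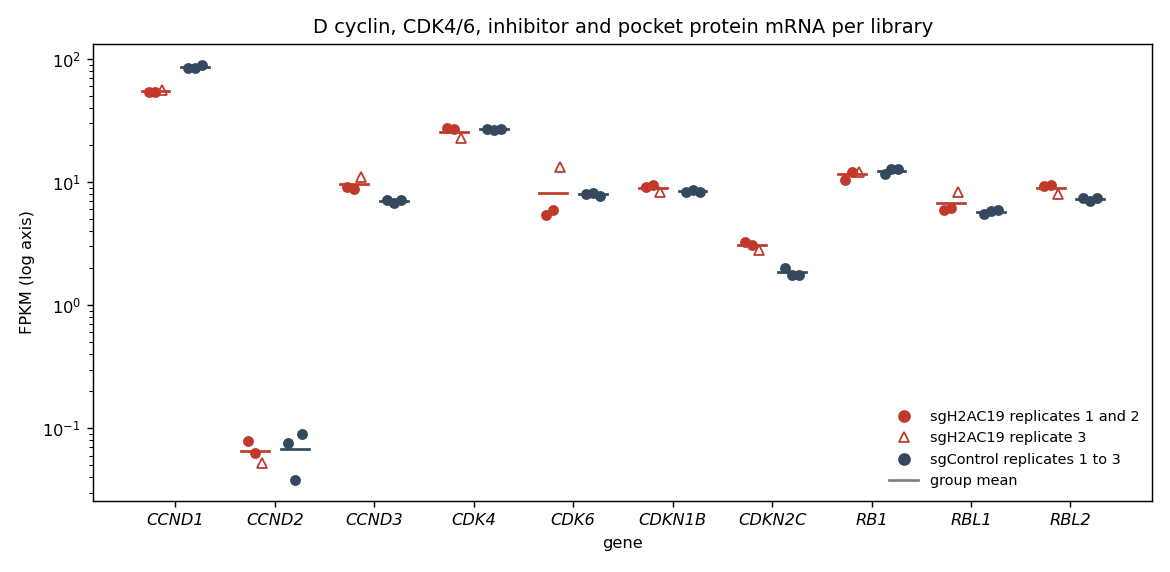
FPKM of each member (log axis) in the 6 libraries, with sgH2AC19 left of sgControl for each gene and replicate 3 of sgH2AC19 as an open triangle. All sgH2AC19 points of CCND1 lie below the sgControl points, those of CCND3, CDKN2C, RBL1 and RBL2 lie above them, and the triangle of CDK6, at 13.1 FPKM, lies above all other CDK6 points.

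Levels between genes are compared per length, as FPKM, and within each group. In sgH2AC19 the order by mean was CCND1, CDK4, RB1, CCND3, CDKN1B, RBL2, CDK6, RBL1, CDKN2C and CCND2. From RB1 to RBL1 the ranges of all neighbours in that order overlapped. In sgControl the order was CCND1, CDK4, RB1, CDKN1B, CDK6, RBL2, CCND3, RBL1, CDKN2C and CCND2, and the ranges of RBL2 and CCND3 were the only ones of neighbours to overlap. CCND3 was thus at rank 4 in sgH2AC19 and at rank 7 in sgControl. The place of CDKN1B depends on the gene length used, since the spacing of its values implies at least 9255 bases, against 2811 in GENCODE 29.

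CCND1 encodes cyclin D1, the most abundant member in both groups. Its levels were 53.9, 53.5 and 56.3 FPKM in sgH2AC19, against 84.0, 84.3 and 89.6 FPKM in sgControl. All 3 knockout libraries were below all control libraries, and replicate 3 lay close to the other two. CCND1 averaged 54.6 ± 1.54 FPKM in sgH2AC19 and 85.97 ± 3.16 FPKM in sgControl (SD, n = 3 each), so the knockout level was 63.5% of the control level. The log2 fold change of FPKM + 1 was −0.65 (SE 0.0446, limma adjusted p = 0.000384), and −0.67 without sgH2AC19 replicate 3 (adjusted p = 0.000421). CCND1 lies on chr11:69641087-69654474 (plus strand, GRCh38, GENCODE 29). Between 9086 and 17309 reads per library stand behind its values. LTO1 overlaps its annotated span by 1399 bases on the opposite strand, at 2.57 to 3.20 FPKM in sgH2AC19 and 3.18 to 3.54 FPKM in sgControl. Whether the counting used strand is not given in the sources used here.

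CCND3 encodes cyclin D3, which also binds CDK4 and CDK6, and it moved in the opposite direction. Its levels were 9.13, 8.83 and 10.9 FPKM in sgH2AC19, against 7.16, 6.72 and 7.09 FPKM in sgControl. Every knockout library was above every control library, and replicate 3 was the highest. CCND3 averaged 9.64 ± 1.14 FPKM in sgH2AC19 and 6.99 ± 0.241 FPKM in sgControl (SD, n = 3 each). Its log2 fold change of FPKM + 1 was 0.41 (SE 0.0786, limma adjusted p = 0.0117), and 0.32 without sgH2AC19 replicate 3 (adjusted p = 0.00561). Testing every gene above 0 FPKM ended the call (adjusted p = 0.0508). CCND3 spans chr6:41934933-42050357 on the minus strand.

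Of the 3 promoter windows of CCND3, the one with the most motif words is shown because the gene rose. It gives the 250 bases before a RefSeq start (GRCh38.p14, chr6:42048689-42048938, minus strand), 5′ to 3′, with GC boxes in capitals (GGGCGG or its reverse complement).
CCND3 promoter: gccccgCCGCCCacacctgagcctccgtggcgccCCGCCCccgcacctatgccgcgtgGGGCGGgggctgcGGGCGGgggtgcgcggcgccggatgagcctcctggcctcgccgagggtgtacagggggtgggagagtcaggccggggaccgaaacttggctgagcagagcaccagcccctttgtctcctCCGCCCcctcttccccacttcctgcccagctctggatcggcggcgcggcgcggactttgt
It holds 5 GC boxes, a count that follows in part from choosing the window by its words. No E2F word, AP-1 word or CRE core was found in this window. The other CCND3 windows, chr6:41941759-41942058 and chr6:41939156-41939455, held 4 and 0 GC boxes and none of the other words. CCND1 and CCND2 have no window in the table used.

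CCND2, the gene for cyclin D2, was near the limit of detection in both groups. It had 0.0794, 0.0632 and 0.0527 FPKM in sgH2AC19, against 0.0760, 0.0380 and 0.0895 FPKM in sgControl, from 12 to 29 reads per library. The groups overlap, and the gene was below the filter on low values, so it was not tested. CCND2 lies on chr12:4273772-4305350 (plus strand).

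With CCND1 lower and CCND3 higher, the makeup of the D cyclin mRNA differed between the groups. CCND1 made up 83.7% to 85.7% of the summed D cyclin FPKM in sgH2AC19, against 92.1% to 92.6% in sgControl. CCND3 made up 14.2% to 16.3% in sgH2AC19, against 7.33% to 7.85% in sgControl. The ratio of CCND1 to CCND3 was 5.15 to 6.05 in sgH2AC19 and 11.7 to 12.6 in sgControl, and the ranges are far apart. The summed level was 62.4 to 67.3 FPKM in sgH2AC19 and 91.1 to 96.8 FPKM in sgControl. The shares were not tested apart from the single genes.

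**Figure D2:**
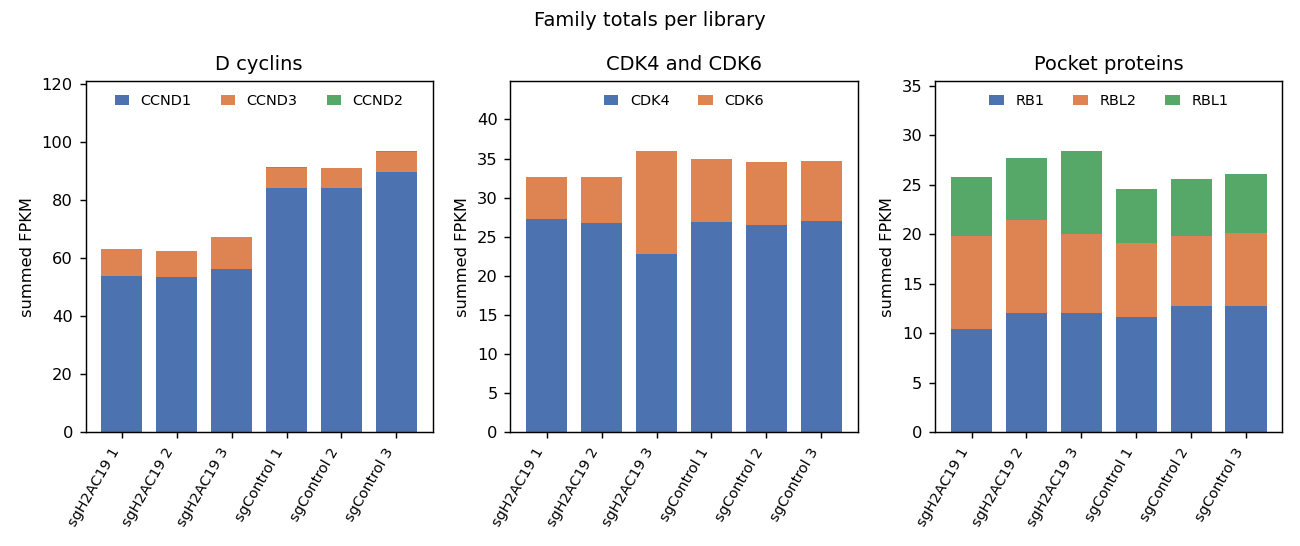
Summed FPKM of the D cyclins, of CDK4 and CDK6, and of the pocket proteins in each library, stacked by gene, with sgH2AC19 libraries left of sgControl libraries. The D cyclin stacks reach 62.4 to 67.3 FPKM in sgH2AC19 and 91.1 to 96.8 FPKM in sgControl, and the CDK6 part is tallest in sgH2AC19 replicate 3.

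CDK4, the catalytic partner of D cyclins with the higher mRNA level here, was not called. It had 27.3, 26.8 and 22.8 FPKM in sgH2AC19, against 26.9, 26.5 and 27.02 FPKM in sgControl. Replicate 1 of the knockout lay just above the control libraries, replicate 2 among them, and replicate 3 below them, so the groups overlap. CDK4 averaged 25.6 ± 2.47 FPKM in sgH2AC19 and 26.8 ± 0.246 FPKM in sgControl (SD, n = 3 each). Its log2 fold change was −0.07 (95% interval −0.23 to 0.10, limma adjusted p = 0.526), and 0.01 without sgH2AC19 replicate 3 (adjusted p = 0.826), where the direction turned. TSPAN31 and MARCH9 overlap CDK4 on the opposite strand by 2485 and 916 bases. TSPAN31 had 6.24, 5.43 and 4.54 FPKM in sgH2AC19, against 5.10 to 5.50 FPKM in sgControl, and was not called. MARCH9 had 3.59, 3.03 and 2.85 FPKM in sgH2AC19, against 3.94 to 4.16 FPKM in sgControl. It was called down (limma adjusted p = 0.0303), but not without sgH2AC19 replicate 3 (0.0504). The part of these genes in the CDK4 values was not tested. CDK4 lies on chr12:57747727-57756013 (minus strand).

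CDK6, the other D cyclin kinase, split the knockout libraries. It had 5.38, 5.90 and 13.1 FPKM in sgH2AC19, against 8.04, 8.09 and 7.68 FPKM in sgControl. Replicates 1 and 2 were below all control libraries and replicate 3 was above all of them, while the control libraries lay close together. CDK6 averaged 8.14 ± 4.34 FPKM in sgH2AC19 and 7.94 ± 0.222 FPKM in sgControl (SD, n = 3 each). With all libraries the log2 fold change was −0.07 (SE 0.274, 95% interval −0.71 to 0.58, limma adjusted p = 0.890). Without sgH2AC19 replicate 3 it was −0.43 and was called (adjusted p = 0.00314). Without replicate 1 or replicate 2 of sgH2AC19 it was 0.14 (adjusted p = 0.744) and 0.09 (adjusted p = 0.866), so a single library decides the direction. The mean over the 3 knockout libraries describes none of them.

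The excess of CDK6 in sgH2AC19 replicate 3 was among the larger ones of that library. Its level there was 2.33 times the mean of replicates 1 and 2, a difference of 1.09 in log2(FPKM + 1), which ranked 30 of 12871 genes by size. The median absolute difference over all genes tested was 0.106. It rested on 6108 reads in replicate 3 and on 3014 and 2575 reads in replicates 1 and 2. The pattern of CDK6, with replicates 1 and 2 below and replicate 3 above all control libraries, was seen in 257 genes (2.00% of those tested). Among the other members, the differences between replicate 3 and the mean of replicates 1 and 2 ran from −0.24 for CDK4 to 0.40 for RBL1.

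CDK6 spans chr7:92604921-92836594 on the minus strand. Of its neighbours within 1 Mb, 12 were tested, and their differences between replicate 3 and the mean of replicates 1 and 2 ran from −0.28 to 0.51, with a median size of 0.0529. None of them came near the CDK6 value of 1.09. Against sgControl 1 of the 12 neighbours was called, where 23.1% of all genes tested were. It is RBM48, which encodes an RNA-binding protein and fell by 0.21 on the log2 scale (limma adjusted p = 0.0416). That call was lost without sgH2AC19 replicate 2 (adjusted p = 0.104) or 3 (0.0677), and without sgControl replicate 1 (0.102), 2 (0.111) or 3 (0.127), with the replicate number as a block (0.0816) and with every gene above 0 FPKM in the test (0.113). RBM48 was named after its value was seen.

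**Figure D3:**
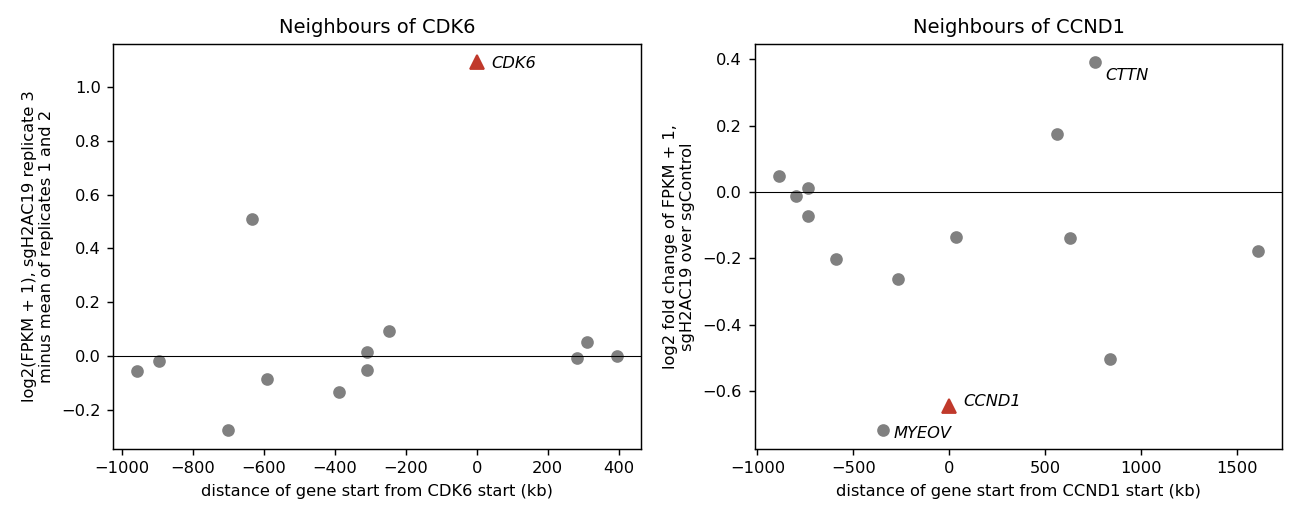
Tested genes within 1 Mb of CDK6 (left, difference in log2(FPKM + 1) between sgH2AC19 replicate 3 and the mean of replicates 1 and 2) and of CCND1 (right, log2 fold change, sgH2AC19 over sgControl), by distance between gene starts in kb. A gene was included if any part of it lay within 1 Mb, so its start can lie farther away. CDK6 lies at 1.09 and its neighbours between −0.28 and 0.51, whereas near CCND1 the gene MYEOV, at −0.72, is as low as CCND1, at −0.65.

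The kinase makeup followed CDK6. CDK6 made up 16.5%, 18.04% and 36.6% of the summed CDK4 and CDK6 FPKM in sgH2AC19, against 22.1% to 23.4% in sgControl. The ratio of CDK4 to CDK6 was 5.07, 4.54 and 1.74 in sgH2AC19 and 3.28 to 3.52 in sgControl. The control range lies between replicate 3 and the other knockout libraries. The summed level was 32.7, 32.7 and 35.9 FPKM in sgH2AC19 and 34.6 to 34.9 FPKM in sgControl.

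Of 13 tested neighbours within 1 Mb of CCND1, 1 rose, 2 fell and 10 were not called. Over all genes tested 23.1% were called, so the share near CCND1 is that of the background. MYEOV, a gene named from myeloma and often amplified together with CCND1 in cancer, averaged 13.9 ± 1.49 FPKM in sgH2AC19 and 23.4 ± 0.175 FPKM in sgControl (SD, n = 3 each), with a log2 fold change of −0.72 (limma adjusted p = 0.00137). CTTN, which encodes the actin-binding protein cortactin, averaged 43.8 ± 1.91 FPKM in sgH2AC19 and 33.1 ± 0.647 FPKM in sgControl (SD, n = 3 each), with a log2 fold change of 0.39 (adjusted p = 0.00208). The remaining call was a long non-coding RNA gene listed as ENSG00000260877, which fell by 0.26 on the log2 scale (adjusted p = 0.0317). Its call was lost without sgH2AC19 replicate 2 (adjusted p = 0.0885) or 3 (0.0568), and without sgControl replicate 1 (0.102), 2 (0.0535) or 3 (0.103), with voom on recovered reads (0.0638) and with every gene above 0 FPKM in the test (0.106). These neighbours were named after their values were seen.

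Over the 6 libraries, the genes whose log2(FPKM + 1) followed that of CCND1 most closely were CORO2B (Pearson r = 0.999), ZMIZ1 (r = 0.998) and UBASH3B (r = 0.996). All of them were lower in the knockout libraries, which follows from choosing them by r to CCND1, and each r includes that difference between the groups. ZMIZ1 was not called (log2 fold change −0.13, limma adjusted p = 0.0553). CORO2B reached the filter's 1 FPKM in the sgControl libraries alone. The values are a description over libraries that share their groups, and no p is given.

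CDKN2C encodes p18, an INK4 inhibitor of CDK4 and CDK6, and rose. Its levels were 3.26, 3.10 and 2.83 FPKM in sgH2AC19, against 2.01, 1.75 and 1.76 FPKM in sgControl. All knockout libraries were above all control libraries. CDKN2C averaged 3.06 ± 0.219 FPKM in sgH2AC19 and 1.84 ± 0.146 FPKM in sgControl (SD, n = 3 each). The log2 fold change of FPKM + 1 was 0.52 (SE 0.0695, limma adjusted p = 0.00332), and 0.56 without sgH2AC19 replicate 3 (adjusted p = 0.00309). Adding 1 FPKM shrinks the fold change of a gene this low, and it was 0.74 in the fit on recovered reads. The values rest on 324 to 450 reads per library in sgH2AC19 and on 209 to 220 in sgControl. CDKN2C lies on chr1:50960745-50974633 (plus strand).

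Of the 3 CDKN2C windows, the one with the most motif words gives the 250 bases before a RefSeq start (GRCh38.p14, chr1:50968456-50968705, plus strand), 5′ to 3′, with GC boxes in capitals. It is shown because the gene rose.
CDKN2C promoter: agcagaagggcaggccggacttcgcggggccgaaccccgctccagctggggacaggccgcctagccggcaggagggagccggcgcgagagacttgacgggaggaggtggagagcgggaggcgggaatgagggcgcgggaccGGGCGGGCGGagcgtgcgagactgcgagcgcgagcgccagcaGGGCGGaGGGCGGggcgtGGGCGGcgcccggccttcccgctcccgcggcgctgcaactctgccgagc
It holds 5 GC boxes, of which a pair overlaps. Like that of CCND3, it holds no E2F word. The other CDKN2C windows, chr1:50960495-50960794 and chr1:50969995-50970294, held 0 and 1 GC boxes, 1 CRE core each and no E2F word.

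CDKN1B encodes p27, a CIP/KIP inhibitor, and was not called. It had 9.15, 9.41 and 8.29 FPKM in sgH2AC19, against 8.33, 8.68 and 8.32 FPKM in sgControl. Replicates 1 and 2 of the knockout were above all control libraries and replicate 3 was just below them, a pattern shared by 417 genes (3.24% of those tested). CDKN1B averaged 8.95 ± 0.589 FPKM in sgH2AC19 and 8.44 ± 0.202 FPKM in sgControl (SD, n = 3 each). On the log2 scale the change was 0.07 (95% interval −0.06 to 0.21, limma adjusted p = 0.380), and 0.12 without sgH2AC19 replicate 3 (adjusted p = 0.0882). CDKN1B lies on chr12:12715058-12722371 (plus strand).

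Among the other CDK inhibitor genes, 2 of the 5 listed were tested, and both fell, where 11.0% of all genes did. The median log2 fold change, here of only 2 values, was −0.46 beside −0.01 over all genes. CDKN1A, which encodes the CIP/KIP inhibitor p21, had 43.3, 45.1 and 48.1 FPKM in sgH2AC19, against 71.3, 77.8 and 67.5 FPKM in sgControl. All knockout libraries were lower, and the fitted log2 change was −0.65 (SE 0.0641, limma adjusted p = 0.00120). CDKN2D, the gene for the INK4 inhibitor p19, had 1.82, 1.58 and 1.56 FPKM in sgH2AC19, against 2.35, 2.05 and 2.19 FPKM in sgControl, and fell by 0.27 on the log2 scale (adjusted p = 0.0337). Its call was lost without sgH2AC19 replicate 2 (adjusted p = 0.0868) or 3 (0.0590), and without sgControl replicate 1 (0.113), 2 (0.0622) or 3 (0.0946). It was also lost with voom on recovered reads (adjusted p = 0.0950) and with every gene above 0 FPKM in the test (0.108). CDKN2B was listed at 0 in every library, and CDKN2A at 0 in all but sgControl replicate 2, where it had 0.00651 FPKM. A549 is known to lack the CDKN2A locus. CDKN1C, the gene for p57, had 0.282 to 0.565 FPKM in sgH2AC19 and 0.449 to 0.636 FPKM in sgControl and was not tested.

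RB1 encodes the retinoblastoma protein and was not called. It had 10.5, 12.1 and 12.0 FPKM in sgH2AC19, against 11.7, 12.7 and 12.7 FPKM in sgControl. The groups overlap. RB1 averaged 11.5 ± 0.924 FPKM in sgH2AC19 and 12.4 ± 0.614 FPKM in sgControl (SD, n = 3 each). For RB1 the log2 fold change was −0.10 (95% interval −0.25 to 0.06, limma adjusted p = 0.336), and −0.13 without sgH2AC19 replicate 3 (adjusted p = 0.228). RB1 spans chr13:48303726-48599436 (plus strand). Genes that overlap this span on the opposite strand include LPAR6 (55138 bases), RCBTB2 (44298 bases) and the pseudogene PCNPP5 (481 bases). PCNPP5 had 13.4 to 15.0 FPKM in sgH2AC19 and 14.8 to 16.9 FPKM in sgControl.

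RBL2 encodes p130, the pocket protein that joins the repressive DREAM complex in resting cells, and rose by a small amount. It had 9.34, 9.42 and 8.02 FPKM in sgH2AC19, against 7.44, 7.06 and 7.43 FPKM in sgControl. All knockout libraries were above all control libraries, with replicate 3 the lowest of them. RBL2 averaged 8.93 ± 0.785 FPKM in sgH2AC19 and 7.31 ± 0.221 FPKM in sgControl (SD, n = 3 each). The log2 fold change was 0.25 (SE 0.0665, limma adjusted p = 0.0329), and 0.32 without sgH2AC19 replicate 3 (adjusted p = 0.00464). The call was lost without sgH2AC19 replicate 1 (adjusted p = 0.0916) or 2 (0.0933), without sgControl replicate 1 (0.0812), 2 (0.109) or 3 (0.0823), with the replicate number as a block (0.0519), and with every gene above 0 FPKM in the test (0.106). RBL2 lies on chr16:53433977-53491649 (plus strand), where AKTIP overlaps it by 610 bases.

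RBL1 encodes p107, the pocket protein that is itself made under E2F control in cycling cells. It had 5.94, 6.18 and 8.31 FPKM in sgH2AC19, against 5.46, 5.79 and 5.93 FPKM in sgControl. The groups do not overlap, but replicates 1 and 2 were close to the control libraries and replicate 3 stood well above them. RBL1 averaged 6.81 ± 1.30 FPKM in sgH2AC19 and 5.73 ± 0.243 FPKM in sgControl (SD, n = 3 each). Its log2 fold change was 0.20 (95% interval −0.05 to 0.46, limma adjusted p = 0.220), and 0.07 without sgH2AC19 replicate 3 (adjusted p = 0.360). RBL1 spans chr20:36996349-37095995 on the minus strand.

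The RBL1 promoter is shown because it was the 1 member window of 14, over 8 members, with an E2F word. It gives the 250 bases before the RefSeq start (GRCh38.p14, chr20:37095998-37096247, minus strand), 5′ to 3′, with E2F words in capitals.
RBL1 promoter: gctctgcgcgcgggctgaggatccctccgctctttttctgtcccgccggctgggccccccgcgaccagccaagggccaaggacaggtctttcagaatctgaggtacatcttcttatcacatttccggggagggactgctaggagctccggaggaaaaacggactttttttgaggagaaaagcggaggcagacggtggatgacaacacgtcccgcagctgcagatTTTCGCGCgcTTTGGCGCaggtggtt
The words begin at −26 and −16 from the start. The E2F words searched were TTTCCCGC, TTTGGCGC, TTTCGCGC and TTTGCCGC, on both strands, in windows of 250 bases before to 50 bases after a start, and 3.31% of all 35116 RefSeq windows hold one. The GC box GGGCGG was in 8 of the 14 member windows and in 45.0% of all windows. The CRE core TGACGT was in 3 of the 14 and in 7.98% of all windows, and the AP-1 words TGACTCA and TGAGTCA were in 0 of the 14 and in 4.95% of all windows. Such matches describe letters and show no binding. The only RB1 window (chr13:48476200-48476499) lies inside the gene. The sequence before the annotated RB1 start at 48303726 was therefore not searched.

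In the pocket protein family, RB1 made up 40.6% to 43.6% of the summed FPKM in sgH2AC19, against 47.5% to 49.8% in sgControl. RBL1 and RBL2 together held the rest. RBL1 had its largest share, 29.3%, in sgH2AC19 replicate 3. Its share was 23.1% and 22.3% in the other knockout libraries and 22.2% to 22.7% in sgControl. The summed level was 25.7 to 28.4 FPKM in sgH2AC19 and 24.6 to 26.1 FPKM in sgControl, and these ranges overlap.

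**Figure D4:**
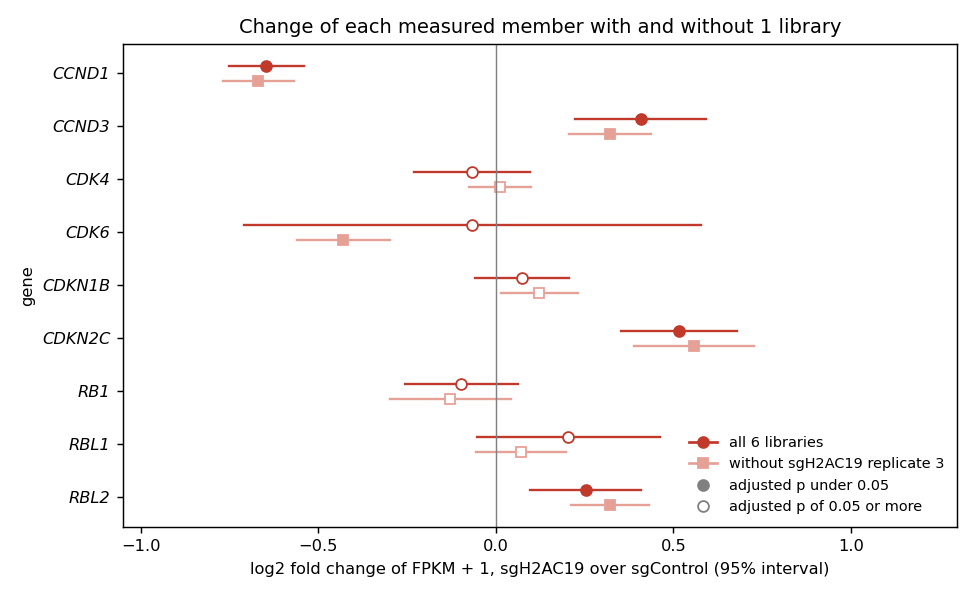
Log2 fold change of FPKM + 1 (sgH2AC19 over sgControl) of the 9 members tested, with 95% intervals, from all 6 libraries (circles) and without sgH2AC19 replicate 3 (squares). CCND1 stays near −0.65 in both fits, whereas CDK6 moves to −0.43 with a much narrower interval when the library is left out.

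Downstream of the pocket proteins, E2F and DP proteins form dimers on their target genes. Of 10 E2F and DP genes tested, 3 rose, 1 fell and 6 were not called, where 12.0% of all genes rose and 11.0% fell. The median log2 fold change was 0.13 beside −0.01 over all genes. TFDP1, which encodes the DP partner of E2Fs, had 23.5, 23.7 and 24.4 FPKM in sgH2AC19, against 18.1, 15.5 and 19.2 FPKM in sgControl, and rose by 0.42 (limma adjusted p = 0.00866). E2F1, an activating E2F, had 7.63, 7.14 and 8.28 FPKM in sgH2AC19, against 5.75, 5.33 and 6.23 FPKM in sgControl, and rose by 0.36 (adjusted p = 0.0129), a call that ended with every gene above 0 FPKM in the test (0.0524). Both had all knockout libraries above all control libraries. E2F4, a repressive E2F that works with RBL1 and RBL2, averaged 11.1 ± 0.337 FPKM in sgH2AC19 and 13.0 ± 0.542 FPKM in sgControl (SD, n = 3 each), and fell by 0.21 on the log2 scale (adjusted p = 0.0226). That call was lost without sgH2AC19 replicate 2 (adjusted p = 0.0565), and without sgControl replicate 1 (0.0655), 2 (0.0528) or 3 (0.0850). It was also lost with the replicate number as a block (adjusted p = 0.0505) and with every gene above 0 FPKM in the test (0.0545). E2F2, another activating E2F, named after its value was seen, rose by 0.24 (adjusted p = 0.0417), and its call was lost without any 1 of the 6 libraries (0.0699 to 0.125), with the block (0.0666) and with every gene above 0 FPKM in the test (0.120).

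Of 22 E2F target genes, 10 rose, 0 fell and 12 were not called, where 12.0% of all genes rose and 11.0% fell. All 22 had a positive log2 fold change, as did 6276 of the 12871 genes tested, and the median was 0.23 beside −0.01 over all genes. At an unadjusted p below 0.05, limma had 16 of the list up and 0 down, beside 2400 up and 2438 down over all genes. The fit with voom on recovered reads called 12 of the list up and 0 down, beside 1817 up and 1723 down over all genes. Without sgH2AC19 replicate 3, 9 were called up, where 14.1% of all genes were, and 21 were positive. The list was chosen with earlier results of these data known, and all these counts come from the same 6 libraries. No test of the list as a set was run. GMNN, which encodes the replication licensing inhibitor geminin, had 11.7, 11.8 and 11.5 FPKM in sgH2AC19, against 8.46, 8.33 and 9.18 FPKM in sgControl (log2 fold change 0.39, limma adjusted p = 0.00252). CDC6, a loader of the replicative helicase, rose by 0.34 (adjusted p = 0.00358), and RRM2, a subunit of ribonucleotide reductase, by 0.31 (adjusted p = 0.00712). For these genes every knockout library was above every control library.

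The MuvB core joins RBL1 or RBL2 and E2F4 in DREAM, and binds MYBL2 or FOXM1 in separate activating complexes. Of 7 genes of the MuvB core and these partners, 3 rose and 4 were not called, with a median of 0.27, where 12.0% of all genes rose. RBBP4 was the only core gene called. At an unadjusted p below 0.05, limma had 4 of the list up and 2 down, beside 2400 up and 2438 down over all genes. Both of the lower genes belong to the core, with all knockout libraries below all control libraries. MYBL2, the B-MYB gene and a known DREAM target, had 31.1, 31.0 and 32.7 FPKM in sgH2AC19, against 19.7, 20.03 and 20.3 FPKM in sgControl. The groups are far apart, and the log2 fold change was 0.63 (SE 0.0420, limma adjusted p = 0.000336). RBBP4, a histone-binding subunit of MuvB, rose by 0.29 (adjusted p = 0.0146), which was lost without sgControl replicate 2 (0.0544). FOXM1, a transcription factor of mitotic genes, rose by 0.27 (adjusted p = 0.0178), which was lost without sgH2AC19 replicate 2 (0.0556) and without sgControl replicate 1 (0.0579) or 2 (0.0605), and with every gene above 0 FPKM in the test (0.0565).

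Of 6 genes for cyclin E, cyclin A, CDK2 and its activators, 4 were tested, with a median of 0.18, and 1 rose, where 12.0% of all genes did. It was CDC25A, a phosphatase that activates CDK2, at 2.76 ± 0.175 FPKM in sgH2AC19 and 2.03 ± 0.236 FPKM in sgControl (SD, n = 3 each; log2 fold change 0.31, limma adjusted p = 0.0268). Its call was lost without any 1 of the 6 libraries (adjusted p = 0.0511 to 0.0746) and with every gene above 0 FPKM in the test (0.0974). Of the 3 genes of the CDK-activating kinase, which phosphorylates CDK4 and CDK6, 1 fell and 2 were not called, where 11.0% of all genes fell. The list median was −0.11 beside −0.01 over all genes. The kinase gene CDK7 fell by 0.28 on the log2 scale (limma adjusted p = 0.0411). The CDK7 call was lost without sgH2AC19 replicate 1 (adjusted p = 0.0883) or 3 (0.0544), and without sgControl replicate 1 (0.0930), 2 (0.129) or 3 (0.0711), and with every gene above 0 FPKM in the test (0.137).

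Of 13 genes for the turnover of D cyclins and p27, 1 rose, 1 fell and 11 were not called, where 23.1% of all genes were called. The median of the list was −0.02. CUL1, the scaffold of SCF ubiquitin ligases, rose by 0.20 (limma adjusted p = 0.0217), which was lost without sgH2AC19 replicate 2 (0.0616) and without sgControl replicate 1 (0.0861) or 2 (0.0730). SKP1, the adaptor of the same ligases, fell by 0.24 on the log2 scale (adjusted p = 0.0452). It reached the filter's 1 FPKM in the sgControl libraries alone, and its call was lost without any 1 of the 3 sgH2AC19 libraries (0.0655 to 0.0954), with a pseudocount of 0.1 (0.0532), with the block (0.0925) and with every gene above 0 FPKM in the test (0.121).

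Of 12 transcription factor genes known to act upstream of D cyclin genes, 1 rose, 3 fell and 8 were not called, where 12.0% of all genes rose and 11.0% fell. The median was −0.08 beside −0.01 over all genes. FOSL1, an AP-1 subunit, had 14.8, 13.7 and 10.2 FPKM in sgH2AC19, against 32.8, 35.5 and 32.1 FPKM in sgControl. The knockout libraries were all far below the control libraries, and the fitted log2 difference was −1.33 (SE 0.123, limma adjusted p = 0.00104). STAT3, a cytokine-activated factor, had 25.9, 25.4 and 26.1 FPKM in sgH2AC19, against 17.3, 17.0 and 17.5 FPKM in sgControl, and rose by 0.55 (adjusted p = 0.000406). TCF7L2, an effector of WNT signalling, fell by 0.22 on the log2 scale (adjusted p = 0.0187), which was lost without sgH2AC19 replicate 1 (0.0543) and without sgControl replicate 1 (0.0760) or 3 (0.0706). JUNB, another AP-1 subunit, named after its value was seen, fell by 0.48 on the log2 scale (adjusted p = 0.020), which was lost without sgH2AC19 replicate 1 (0.0576) or 2 (0.0547) and without sgControl replicate 2 (0.0647), and with every gene above 0 FPKM in the test (0.0868).

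**Figure D5:**
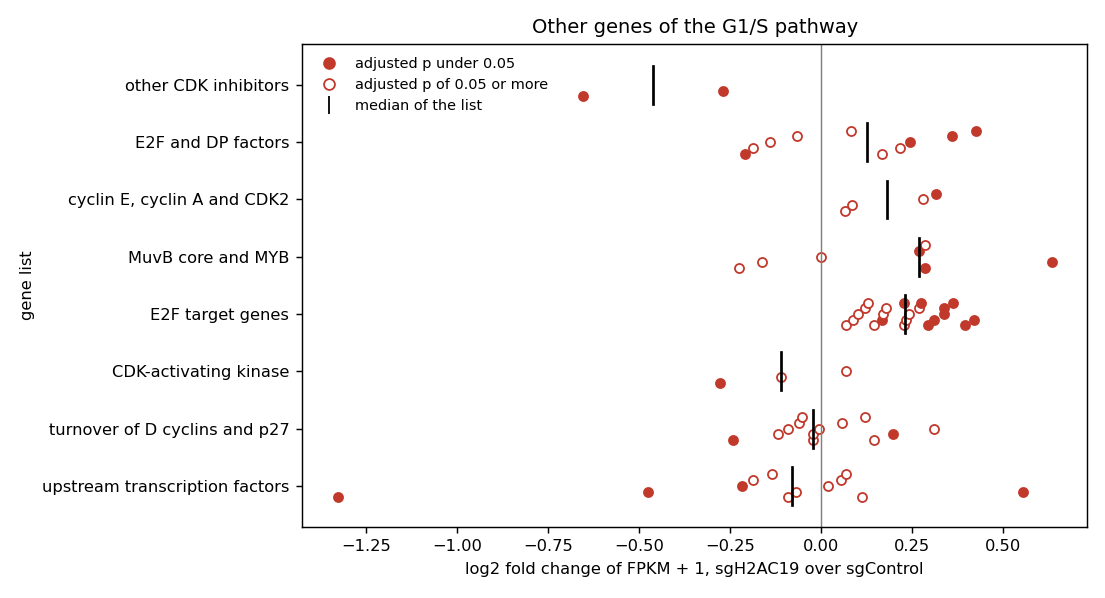
Log2 fold change of FPKM + 1 (sgH2AC19 over sgControl) of the tested genes of 8 pathway lists, 1 row per list, with filled points for adjusted p under 0.05, open points for the others and a bar at the list median. All 22 E2F targets lie right of 0, with a median of 0.23, and FOSL1, at −1.33, is the lowest point among the upstream factors.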

How the data were processed

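Per the labels' protocols, total RNA was made into libraries with a commercial mRNA-seq kit (SMARTer). The deposited values are FPKM computed by the authors, 1 column per library, with columns named sgH2AC taken as sgH2AC19 and those named sgNC as sgControl. Aligner, counter and strand setting are not given in the sources used. GRCm38 and mm10 are the builds in the submitters' processing notes, both mouse, although the 62700 gene IDs all match human genes and 0 have the mouse prefix. Gene positions are from GENCODE 29, which holds 58207 of the IDs, and promoters from RefSeq.

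Genes at 1 FPKM or more in at least 3 libraries were kept. limma 3.58.1 (R 4.3.3, mean-variance trend) compared the groups on log2(FPKM + 1), a scale that understates changes of low genes, with Benjamini-Hochberg adjustment over 12871 genes. Intervals are limma's, at 95%. Read totals differed by a factor of 1.28, and 12869 of the genes gave whole reads within a tolerance of 0.001. Of these, 3759 did so at the annotated length. For the others, and for all 10 members, the smallest length that gave whole reads in all libraries was used. Genes at 2 reads outnumbered genes at 1 read in each library, and genes at 4 reads outnumbered genes at 3 reads. Whether mates were counted singly was not tested. If they were, the read numbers given here stand for fewer fragments. Of the 14 promoter windows of members, the one with the most words was printed for CCND3, CDKN2C and RBL1. The steps were run on simulated reads, with the same relative scatter for every gene and no library standing apart, unlike these data. Of 99 genes changed by 0.5 on the log2 scale 79 were recovered, and of 99 changed by 1, 98. In that run 16 unchanged genes were called. Smaller changes were not simulated.

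The members and gene lists were chosen with earlier results of these data known. Named genes are all members, up to 3 called genes with the smallest adjusted p in each list, all other CDK inhibitors, and the 3 genes most like CCND1. Genes named outside this rule are said to be so. Alternatives were a pseudocount of 0.1, 2 other filters, 2 scalings, the replicate number as a block, voom on recovered reads, and leaving out each library.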

Additional observations from a re-analysis of the deposited data

How the results depend on the processing

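The count of genes changed was 2967, and 1513 to 3429 when each library was left out in turn. Over all genes above 0 FPKM it was 1553, and 2 members were then called, CCND1 and CDKN2C. The count of members called was 4, and 3 to 5 when a library was left out. CCND1 and CDKN2C kept their calls under all 13 alternatives. CDK4, at −0.07 on the log2 scale, ranged from −0.11 to 0.012 when a library was left out and turned without sgH2AC19 replicate 3. CDK6 ranged from −0.43 (called) without sgH2AC19 replicate 3 to 0.14 without replicate 1, with 0.09 without replicate 2. Over the single genes named, 379 values kept their direction and side of the threshold, 78 fell short of it, 2 newly passed it and 3 reversed. No alternative moved the median of all genes by over 0.1. The causes of these shifts were not tested.

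Libraries with the same number deviated together only weakly (correlations of 0.0524, 0.0346 and 0.0602), so the numbers were not taken as a pairing, although each library correlated best with its own number across groups. With the replicate block 2729 genes and 3 members were called, and RBL2 was the member lost (adjusted p = 0.0519). Of the other named genes, E2F4 (0.0505), E2F2 (0.0666), RBM48 (0.0816) and SKP1 (0.0925) lost their calls with the block.

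CCND2, at 12 to 29 reads per library, was too low to compare, and 3 libraries a group limit what can be seen for members with intervals as wide as that of CDK6.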
